A study of Equus caballus with 78 samples.

Results

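Plasma and synovial fluid of an osteoarthritic (OA) joint were compared through the microRNAs of their extracellular vesicles, small membrane-enclosed particles shed by cells. All samples titled plasma (26) and all titled synovial fluid (OA) (26) were taken, 52 of the 78 samples of the series, and they were paired by horse and time point into 26 pairs. The horses (Equus caballus) are numbered 2, 4, 6 and 8, and the time points are 0, 10, 35, 42, 49, 56 and 63, for which the labels give no unit. Horse 4 at time point 10 and horse 2 at time point 63 were not analysed here. Both fluids come from the same animals of an equine osteoarthritis model. The labels give no treatment, age, sex or breed, give no account of how the osteoarthritis was brought about, and mark time points but not a diseased state, so a plasma sample at time point 0 carries the same fluid label as one at 63. The 26 samples of the control (CTRL) joint of the same horses enter in the last comparison.

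MicroRNAs are short RNAs that lower the output of messenger RNAs to which their seed, a stretch near the 5′ end, pairs. Blood cells, platelets and vessel walls release vesicles straight into plasma. Synovial fluid, the lubricant of the joint, is a filtrate of plasma to which the fibroblasts and macrophages of the synovial lining and, to a lesser degree, the cartilage cells add their own products. A microRNA that is abundant in red blood cells or in mesenchymal cells is named below by that background alone, since vesicle RNA does not name the cell it came from.

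MicroRNA reads per library ran from 3916 to 1865513 in plasma (median 14055) and from 11494 to 80090 in OA-joint fluid (median 42865.5). In a library of median depth 1 read was worth 71.1 CPM (read counts scaled to 1000000 microRNA reads in each library) in plasma and 23.3 CPM in OA-joint fluid, so low levels are coarser in plasma. In 3 plasma libraries (horse 2 at time point 0, horse 6 at 10 and horse 8 at 63) microRNA took over 5% of the library total. Together they carried 84.1% of the reads of plasma microRNAs. All 26 plasma libraries carry lane 1 in their deposited names, against 2 of 26 OA-joint libraries (horse 6 at 42 and 63), so lane and fluid can hardly be told apart. In such bulk material, fewer vesicles of a source and less RNA in each vesicle cannot be told apart either. No protein marker of vesicles is part of these counts, so the vesicle label itself was not tested.

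Plasma vesicles gave fewer kinds of microRNA at equal depth and a larger share to the leading few in every horse. At an equal depth of 3900 reads, 56.3 ± 4.9 microRNAs had a read in plasma and 68.1 ± 2.3 in OA-joint fluid (SD of horse means, n = 4 horses), lower in plasma in 4 of 4 horses. Single plasma libraries ran from 34.3 to 125 microRNAs (median 49.5) and OA-joint libraries from 47.5 to 89.4 (median 68.0), so single libraries overlapped. The difference was -11.9 microRNAs, and -18.3 without the pairs of the 3 plasma libraries rich in microRNA, which had the most. The 10 most frequent microRNAs took 77.1 ± 4.3% of microRNA reads in plasma and 63.9 ± 3.7% in OA-joint fluid, more in plasma in 24 of 26 pairs and in 4 of 4 horses. Both differences had an exact two-sided sign-flip permutation p = 0.125, the smallest that 4 pairs allow, so this test cannot bring them under 0.05. Taken as 4 against 4 horse means without the pairing, both had an exact permutation p = 0.0286, the smallest that such a split allows. That version ignores that both fluids come from the same horses. MicroRNA took 1.75 ± 1.08% of the library total in plasma and 0.536 ± 0.139% in OA-joint fluid (exact permutation p = 0.25). That order rested on the 3 plasma libraries rich in microRNA: the plasma minus OA-joint difference was 1.21 percentage points with them and -0.117 without their pairs. The median library stood at 0.287% in plasma and 0.568% in OA-joint fluid. Spike-in reads were not subtracted from the library total.

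**Figure D1:**
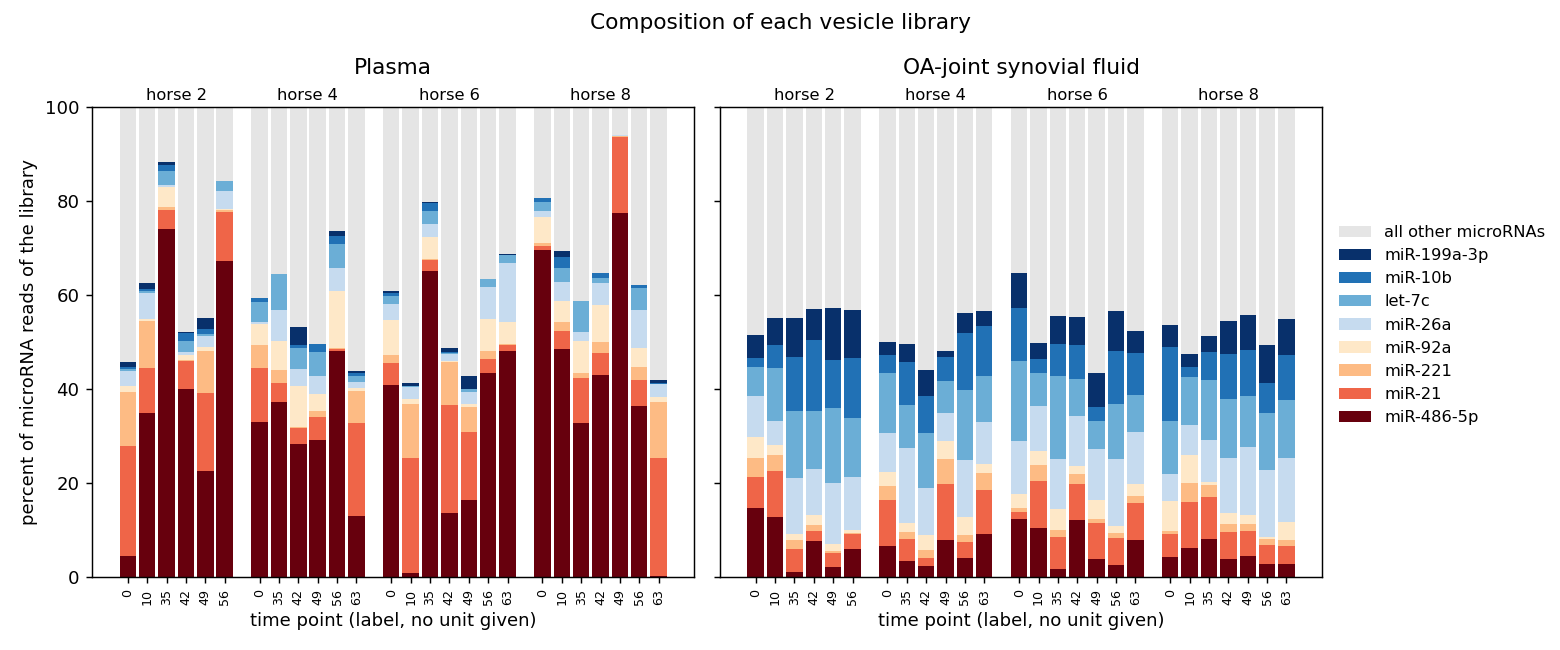
Percent of the microRNA reads (y axis) taken by 8 abundant microRNAs in each of 26 plasma (left) and 26 OA-joint libraries (right), ordered by horse and time point (x axis); miR-199b-3p, whose reads hardly differ from those of miR-199a-3p, is in the grey rest. The dark red miR-486-5p block is large in most plasma bars and thin in the 3 libraries rich in microRNA, while the blue blocks of miR-26a, let-7c, miR-10b and miR-199a-3p are wide in OA-joint fluid.

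CPM of the libraries of a horse were averaged, and the 4 plasma means were tested against the 4 OA-joint means with the horse as a block (limma on log2(CPM + 50), Benjamini-Hochberg adjustment at 0.05). Of 143 microRNAs tested, 21 differed (14.7%): 4 were higher in plasma (2.8%) and 17 lower (11.9%). The 4 horse means of plasma did not overlap those of OA-joint fluid in 30 microRNAs (21%), 18 of them among the 21. Without the pairs of the 3 plasma libraries rich in microRNA 18 of 138 differed, 2 higher (miR-486-5p and miR-192) and 16 lower, and 16 of the 18 were among the 21. In no microRNA were the 26 plasma libraries free of overlap with the 26 OA-joint libraries. CPM share out a fixed total, and miR-486-5p alone averaged 370538 CPM in plasma, so the split depends on the scaling. The median log2 difference of all 143 was -0.35 with CPM and 0.46 with TMM factors (edgeR's scaling to the bulk of features), and TMM gave 18 higher and 5 lower in place of 4 and 17. With RPM of the library total, the median was 0.78 and the split 19 higher and 3 lower. There a library weighs by its microRNA percent, which was 5.86%, 13.1% and 18.6% in the 3 rich plasma libraries (median of all plasma libraries 0.287%). Their part in this split was not tested. With miR-486-5p left out of the total, the median was 0.015 and the split 9 higher and 13 lower.

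Under both CPM and TMM 9 microRNAs differed in the same direction. Higher in plasma were miR-486-5p, miR-126-5p, miR-192 and miR-29a, and lower were miR-10b, miR-199a-3p, miR-199b-3p, let-7a and let-7e. With miR-486-5p left out of the total, the other 8 of these passed as well. Under all 4 scalings 3 passed: miR-10b, miR-29a and miR-126-5p. miR-486-5p cannot be tested where it is left out of the total, and it passed under the rest (adjusted p = 0.0107 in limma with RPM of the library total).

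**Figure D2:**
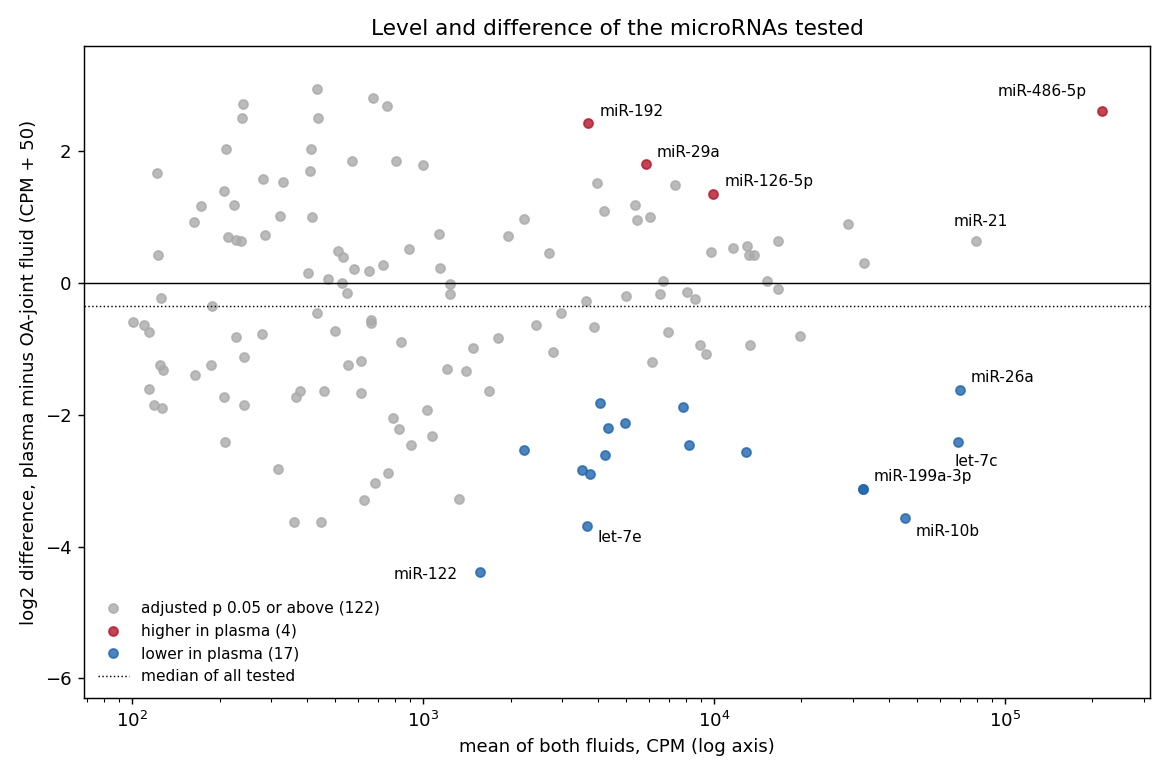
Log2 difference, plasma minus OA-joint fluid (y axis), against the mean CPM of both fluids (log x axis) for 143 microRNAs; red and blue points passed at an adjusted p of 0.05. miR-486-5p stands alone at the upper right, miR-26a, let-7c, miR-199a-3p and miR-10b lie below 0 at high levels, and the dotted line marks the median of all tested, -0.35.

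The red blood cell microRNA miR-486-5p was the leading microRNA of plasma vesicles. Its horse means were 404452, 313397, 325436 and 438865 CPM in plasma of horses 2, 4, 6 and 8, against 72488, 54824, 71504 and 45148 CPM in their OA-joint fluid. The lowest plasma mean was above the highest OA-joint mean. Single libraries ran from 582 to 773671 CPM in plasma (median 367660) and from 8825 to 146106 CPM in OA-joint fluid (median 51530), and plasma was higher in 23 of 26 pairs. The log2 difference was 2.61 (SE 0.25, adjusted p = 8.24e-10), and it was 4.68 with TMM scaling. The other 3 pairs were those of the plasma libraries rich in microRNA. There miR-486-5p stood at 44672 CPM in plasma against 146106 CPM in OA-joint fluid (horse 2), 7626 against 102965 CPM (horse 6) and 582 against 26058 CPM (horse 8). Where libraries weigh by their reads the difference was smaller, at 0.99 with edgeR on counts summed per horse, where it did not pass (adjusted p = 0.131).

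Red blood cell microRNAs as a list of 9 took 44.8 ± 5.3% of microRNA reads in plasma and 13.2 ± 1.1% in OA-joint fluid (SD, n = 4 horses), with plasma horse means from 39.4% to 52.2% and OA-joint means from 11.7% to 14.0%. miR-486-5p alone averaged 370538 CPM in plasma and 60991 CPM in OA-joint fluid, so most of the plasma share and of the gap was its own. With CPM 1 of the 9 was higher, miR-486-5p, and 0 lower. Beside this and the list counts below, 2.8% of all 143 were higher and 11.9% lower. miR-451, which is processed without Dicer and is the classical red blood cell microRNA, stood at 20643 ± 12308 CPM in plasma and 12580 ± 4362 CPM in OA-joint fluid (log2 difference 0.63, adjusted p = 0.227). Its plasma values at single horses were 12059, 38540, 13064 and 18906 CPM, against 6300, 15564, 12937 and 15517 CPM in OA-joint fluid, and these overlap. With TMM miR-451 passed as higher at 1.94 (adjusted p = 0.00279), while RPM of the library total gave -0.22 (adjusted p = 0.848). miR-16 (-0.93, adjusted p = 0.0778) and miR-25 (-1.08, adjusted p = 0.0796), both also abundant in red blood cells, stood below 0 with CPM and above 0 with TMM (0.37 and 0.17). miR-92a was second to miR-486-5p in the list at 38121 ± 19119 CPM in plasma and 27342 ± 5160 CPM in OA-joint fluid (0.31, adjusted p = 0.511), and it passed as higher with TMM (1.91, adjusted p = 0.00208). The median of the 9 was 0.31, against -0.35 for all 143, and with TMM 1.14, against 0.46. The list took 2.28% to 6.43% of reads in the 3 plasma libraries rich in microRNA, where the other 23 had a median of 51.9%.

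miR-126-5p, from an intron of the endothelial gene EGFL7, was higher in plasma. Horse means were 7554, 14559, 25208 and 10855 CPM in plasma of horses 2, 4, 6 and 8, against 7200, 6665, 3239 and 4354 CPM in OA-joint fluid. The groups did not overlap, but the gap was narrow, with horse 2 nearly level. On the log2 scale plasma exceeded OA-joint fluid by 1.36 (SE 0.43, adjusted p = 0.0291), and plasma was higher in 21 of 26 pairs. The median library held 16483 CPM in plasma and 3528 CPM in OA-joint fluid. Without the 3 pairs of the plasma libraries rich in microRNA the difference was 1.39 and did not pass (adjusted p = 0.0983), nor did it without horse 6 (0.83, adjusted p = 0.303) or horse 8 (1.38, adjusted p = 0.183). The other arm of the hairpin, miR-126-3p, stood at 15647 ± 3940 CPM in plasma and 10436 ± 2412 CPM in OA-joint fluid (0.57, adjusted p = 0.299), and its median library was lower in plasma (2592 against 11176 CPM). With TMM miR-126-3p passed as higher too (1.39, adjusted p = 0.0296). Of 4 endothelial microRNAs tested 1 was higher and 0 lower (median 0.77), and the list took 3.46 ± 0.90% of reads in plasma and 2.15 ± 0.55% in OA-joint fluid.

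Of 6 platelet microRNAs 1 was higher (miR-126-5p) and 1 lower (miR-24), with a median of 0.52. miR-223, also in this list, stood at -3.28 without passing (adjusted p = 0.0536), and at -2.30 with TMM (adjusted p = 0.227). The most frequent of the 6, miR-221, which shares its seed with miR-222, stood at 37921 ± 11618 CPM in plasma and 20015 ± 4884 CPM in OA-joint fluid (log2 difference 0.90, SE 0.32, adjusted p = 0.0536). Horse 4 had nearly equal values, 27025 CPM in plasma and 27201 CPM in OA-joint fluid. miR-221 passed without horse 4 (1.20, adjusted p = 0.00817), without the horse as a block (adjusted p = 0.0428), and with TMM at 1.72 (adjusted p = 0.00349). The platelet list took 8.16 ± 2.21% of reads in plasma and 5.29 ± 0.98% in OA-joint fluid. It took 19.9% to 22.9% in the 3 plasma libraries rich in microRNA, where the other 23 had a median of 4.00%, the reverse of the red blood cell list. These 3 were also the deepest in microRNA reads; the part of depth in this was not tested.

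miR-192, enriched in liver, gut and kidney, was higher in plasma. Horse means were 3805, 9662, 3222 and 8395 CPM in plasma of horses 2, 4, 6 and 8, against 2149, 896, 983 and 528 CPM in OA-joint fluid. Every plasma mean lay above every OA-joint mean. It had reads in 19 of 26 plasma libraries and in 11 of 26 OA-joint libraries, and plasma was higher in 19 of 26 pairs, lower in 5 and level at 0 in 2. This gave a log2 difference of 2.43 (SE 0.64, adjusted p = 0.00596), and 3.94 with TMM scaling. It did not pass with RPM of the library total (1.76, adjusted p = 0.218), with edgeR on counts summed per horse (0.56, adjusted p = 0.873), without horse 8 (1.94, adjusted p = 0.168) or with no filter on low values (adjusted p = 0.164). In the 2 pairs with both libraries in lane 1, both of horse 6, it stood at 672 CPM in plasma and 1376 CPM in OA-joint fluid (-0.98), the opposite order.

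The liver list gave no common direction. miR-122, the most abundant microRNA of hepatocytes, was lower in plasma while miR-192 was higher, and miR-215, a seed relative of miR-192, did not differ (adjusted p = 0.441). Horse means of miR-215 were 5.09, 4264, 21.2 and 2149 CPM in plasma, against 345, 1484, 1595 and 1425 CPM in OA-joint fluid. Its arithmetic mean was therefore higher in plasma (1610 against 1212 CPM), while its mean log2 difference was -1.33. Thus 1 of 3 was higher and 1 lower, with miR-215 as the median. The list took 0.806 ± 0.549% of reads in plasma and 0.532 ± 0.254% in OA-joint fluid, more in plasma in 3 of 4 horses. Horse means of miR-122 were 0, 693, 17.2 and 9.76 CPM in plasma of horses 2, 4, 6 and 8, against 1095, 2077, 1561 and 7141 CPM in OA-joint fluid. It rested on few libraries: 4 of 26 in plasma with 83 reads in all, and 12 of 26 in OA-joint fluid with 3033 reads in all. Its highest OA-joint library held 44793 CPM and its median was 0 in both fluids. The log2 difference was -4.38 (SE 1.23, adjusted p = 0.0104), plasma was lower in 12 pairs and higher in 3, and 11 pairs were at 0 in both fluids. Without the 3 pairs of the plasma libraries rich in microRNA it was -3.22 (adjusted p = 0.167), without horse 8 -3.54 (adjusted p = 0.194), and with TMM -3.68 (adjusted p = 0.0593).

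miR-29a, whose family represses collagen and other matrix genes, was higher by the horse means. These were 8202, 8059, 12797 and 7291 CPM in plasma of horses 2, 4, 6 and 8, against 1687, 3973, 2379 and 2422 CPM in OA-joint fluid, with no overlap. The log2 difference was 1.81 (SE 0.47, adjusted p = 0.00596), but plasma was higher in only 16 of 26 pairs. The plasma means rest on a few high libraries, up to 54644 CPM: the median library held 1028 CPM in plasma and 2336 CPM in OA-joint fluid, and with the median per horse the difference was -0.65. Without the 3 pairs of the plasma libraries rich in microRNA it was 1.32 (adjusted p = 0.167), and without horse 6 it was 1.61 (adjusted p = 0.0708). All 3 members of the miR-29 family tested stood above 0 (1 higher, 0 lower, median 1.54), with miR-29b at 0.93 (adjusted p = 0.66) and miR-29c at 1.54 (adjusted p = 0.453), and the family took 0.975 ± 0.302% of reads in plasma and 0.294 ± 0.098% in OA-joint fluid. It took 2.86% to 3.05% in the 3 libraries rich in microRNA, where the other 23 had a median of 0.0866%.

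miR-10b, which lies in the HOXD cluster and is abundant in mesenchymal cells of the limbs and trunk, was the most firmly lower microRNA of plasma. Horse means were 8527, 9577, 3931 and 7342 CPM in plasma of horses 2, 4, 6 and 8, against 94049, 81528, 73470 and 84379 CPM in OA-joint fluid. The highest plasma mean was far below the lowest OA-joint mean. Libraries ran from 0 to 24274 CPM in plasma (median 5685) and from 19582 to 157445 CPM in OA-joint fluid (median 91418), so the library ranges overlapped at their ends. The log2 difference was -3.56 (SE 0.32, adjusted p = 3.81e-10), plasma was lower in 25 of 26 pairs, and the OA-joint mean was 11.4 times the plasma mean. Horse 8 at time point 10 was the exception, with 24274 CPM in plasma and 19582 CPM in OA-joint fluid. With TMM the difference was -2.03, and in the 2 lane 1 pairs -5.86.

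None of the other microRNAs of the HOX clusters passed. Of 4 tested 0 were higher and 1 lower, with a median of -1.29 with CPM that turned to 1.01 with RPM of the library total. miR-10a, which differs from miR-10b at 1 central base and lies in the HOXB cluster, stood at 2429 CPM in plasma and 1496 CPM in OA-joint fluid (0.71, adjusted p = 0.569). miR-196a and miR-196b, which repress HOX messenger RNAs, stood on opposite sides of 0, miR-196a at 2.69 (adjusted p = 0.227). miR-196b stood at 100 CPM in plasma and 1151 CPM in OA-joint fluid, lower in 4 of 4 horses without overlap of the horse means (-3.29, adjusted p = 0.0836, and -2.71 with TMM). The list took 1.11 ± 0.30% of reads in plasma and 8.63 ± 0.90% in OA-joint fluid, most of it miR-10b.

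miR-199a-3p, made from an intronic transcript of dynamin genes in fibroblasts and other mesenchymal cells, was lower in every pair. Horse means were 9126, 9037, 6969 and 2889 CPM in plasma of horses 2, 4, 6 and 8, against 77365, 34654, 61806 and 59069 CPM in OA-joint fluid, without overlap. They gave a log2 difference of -3.12 (SE 0.36, adjusted p = 3.58e-08), plasma was lower in 26 of 26 pairs, and it was -2.07 with TMM. miR-199b-3p (-3.12) had equal counts in 50 of the 52 libraries and is not an independent result. The 5p arms did not pass. miR-199a-5p stood at 1455 CPM in plasma and 1015 CPM in OA-joint fluid (-0.017, adjusted p = 0.992). miR-199b-5p stood at 249 CPM in plasma and 1406 CPM in OA-joint fluid, lower in 4 of 4 horses without overlap of the horse means (-2.22, adjusted p = 0.178, and -1.85 with TMM). miR-214, from the same transcript as miR-199a, stood at 190 CPM in plasma and 723 CPM in OA-joint fluid, also lower in 4 of 4 horses without overlap (-1.63, adjusted p = 0.427, and -1.30 with TMM).

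Of 13 fibroblast and mesenchymal microRNAs 0 were higher and 3 lower (miR-10b, miR-199a-3p and miR-199b-3p). Of all 143, 2.8% were higher and 11.9% lower. The 13 took 6.92 ± 2.04% of reads in plasma and 22.7 ± 3.7% in OA-joint fluid. Horse means ran from 4.27% to 9.23% in plasma and from 18.3% to 27.2% in OA-joint fluid. Most of the OA-joint share lay in the 3 lower names, at 83357, 58224 and 58084 CPM, against 7344, 7005 and 7004 CPM in plasma. The miR-199a-3p and miR-199b-3p counts were nearly equal, so each name adds nearly the same value to the share. Of the 13, 7 stood above 0. The remaining 10 did not pass and stood on both sides of 0, miR-199b-5p and miR-214 among those below it. The median of the 13 was 0.21, above that of all 143, and it lay above 0 under all 4 scalings. Above 0, the smooth muscle and fibroblast microRNA miR-143 stood at 7641 ± 4184 CPM in plasma and 3070 ± 1057 CPM in OA-joint fluid (1.18, adjusted p = 0.11). miR-100 (1.10, adjusted p = 0.143) and miR-125b-5p (0.96, adjusted p = 0.166), co-transcribed with let-7 genes, also stood above 0. With TMM miR-143, miR-100, miR-125b-5p and miR-31 passed as higher (2.40, 1.99, 2.26 and 2.32, with adjusted p of 0.00657, 0.0125, 0.00349 and 0.0166). Plasma CPM were higher in 13, 17, 14 and 15 of the 26 pairs. The median library was lower in plasma for miR-100 (891 against 1388 CPM), miR-125b-5p (758 against 2082 CPM) and miR-31 (761 against 3286 CPM). For miR-143 it was 2889 CPM in plasma and 2537 CPM in OA-joint fluid. The list took 13.2% to 15.6% in the 3 plasma libraries rich in microRNA, where the other 23 had a median of 4.93%.

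**Figure D3:**
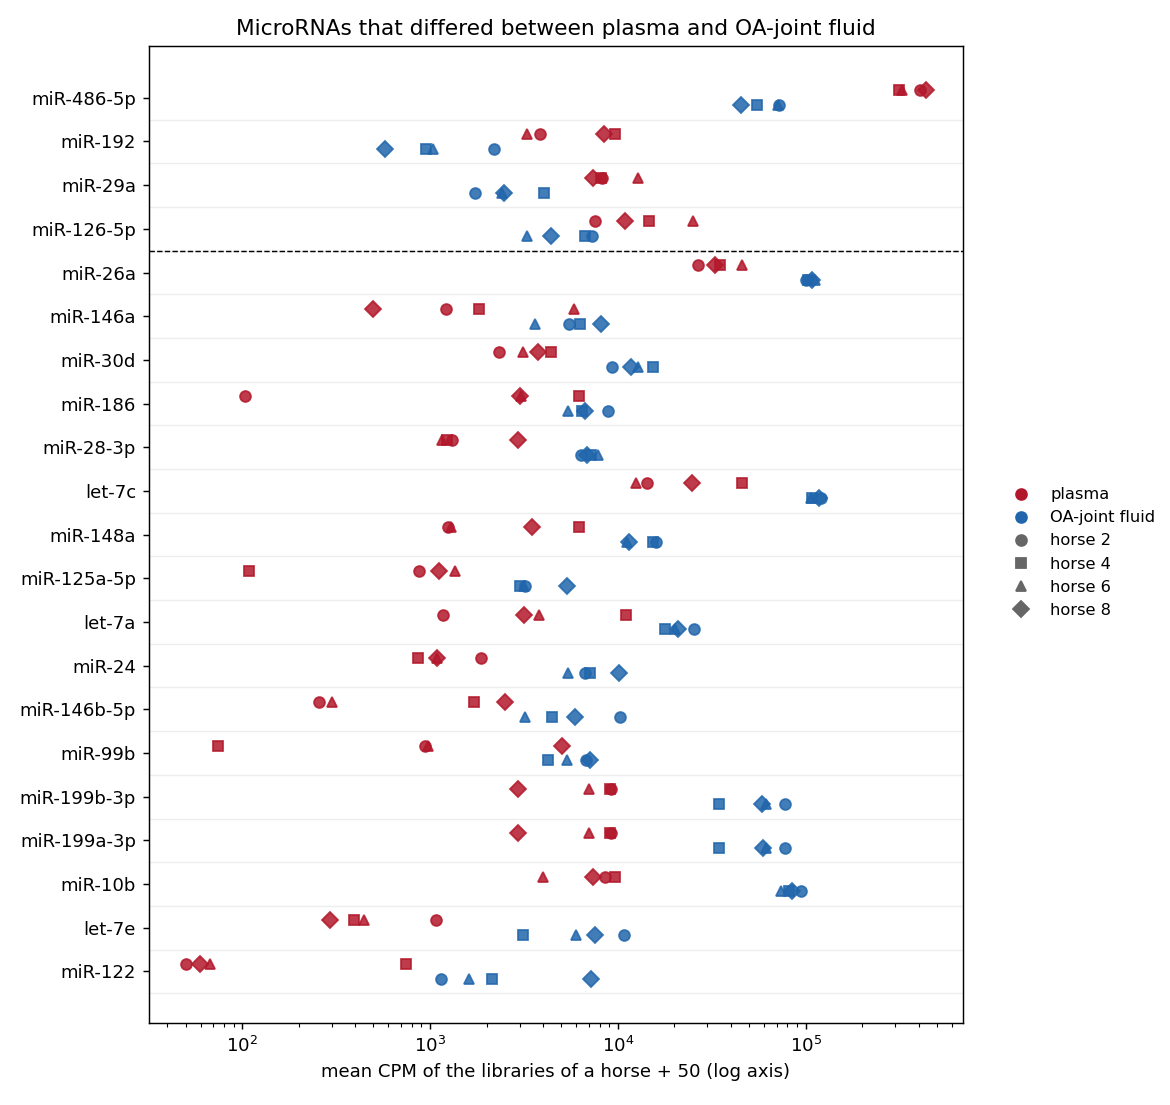
Mean CPM + 50 (log x axis) of each horse in plasma (red) and OA-joint fluid (blue) for the 21 microRNAs that differed, the 4 higher in plasma above the dashed line and the 17 lower below it. Symbols mark horses. Red and blue overlap in miR-146a, miR-186 and miR-99b and are separate in the other 18.

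The let-7 family, which restrains growth and stem cell programmes and shares 1 seed, stood below 0 in plasma in every member tested. Of 7 members tested 0 were higher and 3 lower, none of the 7 stood above 0, and the median was -2.04 against -0.35 for all 143; it stayed below 0 under all 4 scalings (-0.83 with TMM). The family took 3.79 ± 2.12% of reads in plasma and 15.8 ± 1.7% in OA-joint fluid, and the plasma range over horses (2.23% to 6.88%) lay below that of OA-joint fluid (14.0% to 18.0%). Reads of near-identical let-7 members may be shared between names, and their counting is not stated in any source used here.

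let-7c was the most frequent microRNA of OA-joint vesicles and the sixth of plasma. Horse means were 14235, 45668, 12498 and 24647 CPM in plasma of horses 2, 4, 6 and 8, against 121367, 107712, 107195 and 117277 CPM in OA-joint fluid. OA-joint values were nearly even over the horses, plasma values were not, and the groups were far apart. The log2 difference was -2.42 (SE 0.31, adjusted p = 2.46e-07), and plasma was lower in 26 of 26 pairs. With TMM it was -0.83 and did not pass (adjusted p = 0.178).

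let-7a stood at 1127, 10971, 3772 and 3107 CPM in plasma of horses 2, 4, 6 and 8, against 25374, 17743, 20147 and 20846 CPM in OA-joint fluid (-2.56, SE 0.46, adjusted p = 8.78e-05, lower in 25 of 26 pairs). Horse 4 was highest in plasma and lowest in OA-joint fluid, and still did not bring the groups together. let-7e stood at 1025, 346, 394 and 244 CPM in plasma, against 10680, 3091, 5956 and 7477 CPM in OA-joint fluid (-3.69, SE 0.70, adjusted p = 0.000217, lower in 25 of 26 pairs). It had a read in 13 of 26 plasma libraries and in 25 of 26 OA-joint libraries. Both passed with TMM, let-7a at -1.46 (adjusted p = 0.0409) and let-7e at -3.03 (adjusted p = 0.00891). The other 4, let-7d, let-7f, let-7g and miR-98, stood between -2.04 and -0.84 without passing.

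miR-26a, which targets the Polycomb gene EZH2, was lower in plasma at an otherwise high level. Horse means were 26613, 34803, 45995 and 32725 CPM in plasma of horses 2, 4, 6 and 8, against 99839, 102764, 111932 and 107495 CPM in OA-joint fluid. The OA-joint means lay within a narrow band and the plasma means all below it. This amounted to a log2 difference of -1.62 (SE 0.27, adjusted p = 3.02e-05, lower in 24 of 26 pairs). It depended on the scaling, at -0.92 with miR-486-5p left out of the total (adjusted p = 0.00214) and -0.19 with TMM (adjusted p = 0.737).

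miR-148a, found in cartilage cells and liver among other tissues, stood at 3008 ± 2344 CPM in plasma and 13419 ± 2528 CPM in OA-joint fluid (SD, n = 4 horses; -2.45, adjusted p = 0.000217, lower in 22 of 26 pairs). It was the only 1 of 4 chondrocyte microRNAs that differed (0 higher, 1 lower, median -2.15). The list took 0.950 ± 0.427% of reads in plasma and 2.18 ± 0.34% in OA-joint fluid. The cartilage-defining hairpin miR-140 was sparse in both fluids: miR-140-3p had reads in 4 of 26 plasma and 13 of 26 OA-joint libraries (-3.03, adjusted p = 0.11), and miR-140-5p in 3 and 5 (-1.85, adjusted p = 0.379). The most frequent member after miR-148a, miR-27b, stood at 6185 CPM in plasma and 6820 CPM in OA-joint fluid (-0.17, adjusted p = 0.812). The median of the list was below 0 under all 4 scalings.

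miR-24 was lower while its cluster partners were level. It stood at 1172 ± 437 CPM in plasma and 7299 ± 2014 CPM in OA-joint fluid (-2.61, SE 0.57, adjusted p = 0.000997, lower in 22 of 26 pairs). The microRNAs made from the same transcripts did not differ with CPM: miR-23a was at 15652 CPM in plasma and 14913 CPM in OA-joint fluid (0.027, adjusted p = 0.966), and miR-27a, miR-27b and miR-23b stood between -0.28 and -0.14. Of the 5 microRNAs of the miR-23/27/24 clusters 0 were higher and 1 lower, with a median of -0.17 with CPM and 0.82 with TMM, where miR-23a passed as higher at 1.44 (adjusted p = 0.0485). miR-24 itself did not pass with TMM (-1.69, adjusted p = 0.0707). Without the pairs of the 3 libraries rich in microRNA it was 769 ± 290 CPM in plasma and 7711 ± 2471 CPM in OA-joint fluid (-3.27, adjusted p = 0.00377).

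miR-30d stood at 3342 ± 884 CPM in plasma and 12308 ± 2521 CPM in OA-joint fluid (-1.88, adjusted p = 0.00147, lower in 23 of 26 pairs). It did not pass with TMM (-0.76, adjusted p = 0.281) or with RPM of the library total (-1.27, adjusted p = 0.218). None of the 3 miR-30 microRNAs tested stood above 0 with CPM (0 higher, 1 lower, median -1.66), and with TMM miR-30e turned to 0.82. The family, which restrains autophagy and fibrosis genes, took 0.712 ± 0.331% of reads in plasma and 1.75 ± 0.17% in OA-joint fluid.

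Leukocyte microRNAs gave 2 lower in each of the myeloid and lymphocyte lists and none higher, where 11.9% of all 143 were lower and 2.8% higher. None of these lower microRNAs passed with TMM. miR-146b-5p and miR-146a, which damp Toll-like receptor signalling, stood at 1145 ± 1107 and 2295 ± 2391 CPM in plasma and 5898 ± 3073 and 5825 ± 1859 CPM in OA-joint fluid (-2.84, adjusted p = 0.00447, and -1.82, adjusted p = 0.0474). For miR-146a horse 6 went the other way, with 5787 CPM in plasma and 3589 CPM in OA-joint fluid, and with TMM the difference was -0.26. Without horse 2 miR-146b-5p stood at -2.01 (adjusted p = 0.111), and with TMM at -2.10 (adjusted p = 0.0691). miR-28-3p stood at 1612 ± 859 CPM in plasma and 7009 ± 607 CPM in OA-joint fluid (-2.20, adjusted p = 0.00379). It did not pass with TMM (-1.18, adjusted p = 0.179) or with miR-486-5p left out of the total (-1.66, adjusted p = 0.0515). The defining markers were sparse: the neutrophil microRNA miR-223 had reads in 8 of 26 plasma and 16 of 26 OA-joint libraries (-3.28, adjusted p = 0.0536), and the lymphocyte microRNA miR-150 in 3 and 13 (-2.32, adjusted p = 0.289). miR-142-5p, present in all white blood cells, stood on the other side of 0 by the horse means, at 6124 CPM in plasma and 1812 CPM in OA-joint fluid (1.52, adjusted p = 0.0632). It passed with TMM (2.67, adjusted p = 0.00267). By single libraries the order was the opposite: plasma CPM were higher in 10 of 26 pairs, lower in 14 and level at 0 in 2. The median library of miR-142-5p was also lower in plasma than in OA-joint fluid. The median of the 7 myeloid microRNAs was -0.28 and that of the 8 lymphocyte microRNAs -1.47. The myeloid list took 2.85 ± 1.00% of reads in plasma and 3.59 ± 0.47% in OA-joint fluid, and the lymphocyte list 2.49 ± 0.67% and 3.74 ± 0.57%.

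Of 4 inflammation-induced microRNAs 0 were higher and 2 lower, both of the miR-146 family, with a median of -0.67 with CPM and 0.24 with TMM. The most frequent of them, miR-21, stood at 117060, 73424, 104350 and 93696 CPM in plasma of horses 2, 4, 6 and 8, against 49948, 68070, 67219 and 61228 CPM in OA-joint fluid. The horse means did not overlap, though those of horse 4 were close. The log2 difference of 0.65 did not pass with CPM (SE 0.27, adjusted p = 0.0974) and passed at 2.11 with TMM (adjusted p = 0.00208) and at 0.83 without horse 4 (adjusted p = 0.0266). Median libraries were level, 57100 CPM in plasma and 57417 CPM in OA-joint fluid.

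Within the miR-99a, miR-100 and miR-125 family 0 of 5 were higher and 2 lower, with a median of 0.54. The 2 were those encoded in mammals in the same cluster as let-7e: miR-99b stood at 1712 ± 2239 CPM in plasma and 5802 ± 1313 CPM in OA-joint fluid (-2.90, adjusted p = 0.00439), and miR-125a-5p at 814 ± 540 CPM in plasma and 3641 ± 1118 CPM in OA-joint fluid (-2.54, adjusted p = 0.0244). Horse means of miR-99b overlapped, since horse 8 held 5012 CPM in plasma. miR-99a, the most frequent member, stood at 13936 CPM in plasma and 9402 CPM in OA-joint fluid (0.54, adjusted p = 0.38). The family took 2.96 ± 0.90% of reads in plasma and 2.49 ± 0.23% in OA-joint fluid. miR-99b and miR-125a-5p did not pass with TMM (-1.84 and -2.10, adjusted p = 0.116 and 0.107). With RPM of the library total miR-125a-5p turned to 0.61 (adjusted p = 0.725). miR-186, the last of the 17 lower microRNAs, stood at 3051 ± 2511 CPM in plasma and 6820 ± 1440 CPM in OA-joint fluid (-2.12, adjusted p = 0.0381). Its horse means overlapped, its median plasma library was at 26.5 CPM, and it did not pass with TMM (-1.34, adjusted p = 0.288).

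In the remaining lists no member differed. Of the 16 microRNAs of the imprinted DLK1-DIO3 cluster that were tested, 13 stood above 0, where 60 of all 143 did (42%), and their median was 0.95 against -0.35. The median was above 0 under all 4 scalings. These microRNAs were sparse, and 16 of the 41 with a read passed the filter on low levels. Some passed through plasma alone, such as miR-409-5p (482 CPM in plasma and no read in OA-joint fluid), miR-381 (477 and 0.846 CPM) and miR-485-3p (824 and 0.578 CPM). The filter therefore fixed part of this count and of the median, and neither is a test of the cluster. The most frequent, miR-127, stood at 3154 CPM in plasma and 2265 CPM in OA-joint fluid (0.45, adjusted p = 0.631). The cluster took 1.03 ± 0.42% of reads in plasma and 0.555 ± 0.250% in OA-joint fluid. It took 1.38% to 2.47% in the 3 plasma libraries rich in microRNA, where the other 23 had a median of 0.364%. The 8 microRNAs of the miR-17/92 clusters, which drive growth, had a median of -0.40 with CPM and 0.24 with TMM and took 5.49 ± 2.61% of reads in plasma and 4.84 ± 1.40% in OA-joint fluid. miR-92a was their most frequent member. The 4 epithelial microRNAs (median -0.71, led by miR-182) took 0.260 ± 0.177% of reads in plasma and 0.254 ± 0.188% in OA-joint fluid. The 2 of skeletal muscle (median 0.46, led by miR-133a) took 0.178 ± 0.172% and 0.108 ± 0.042%.

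**Figure D4:**
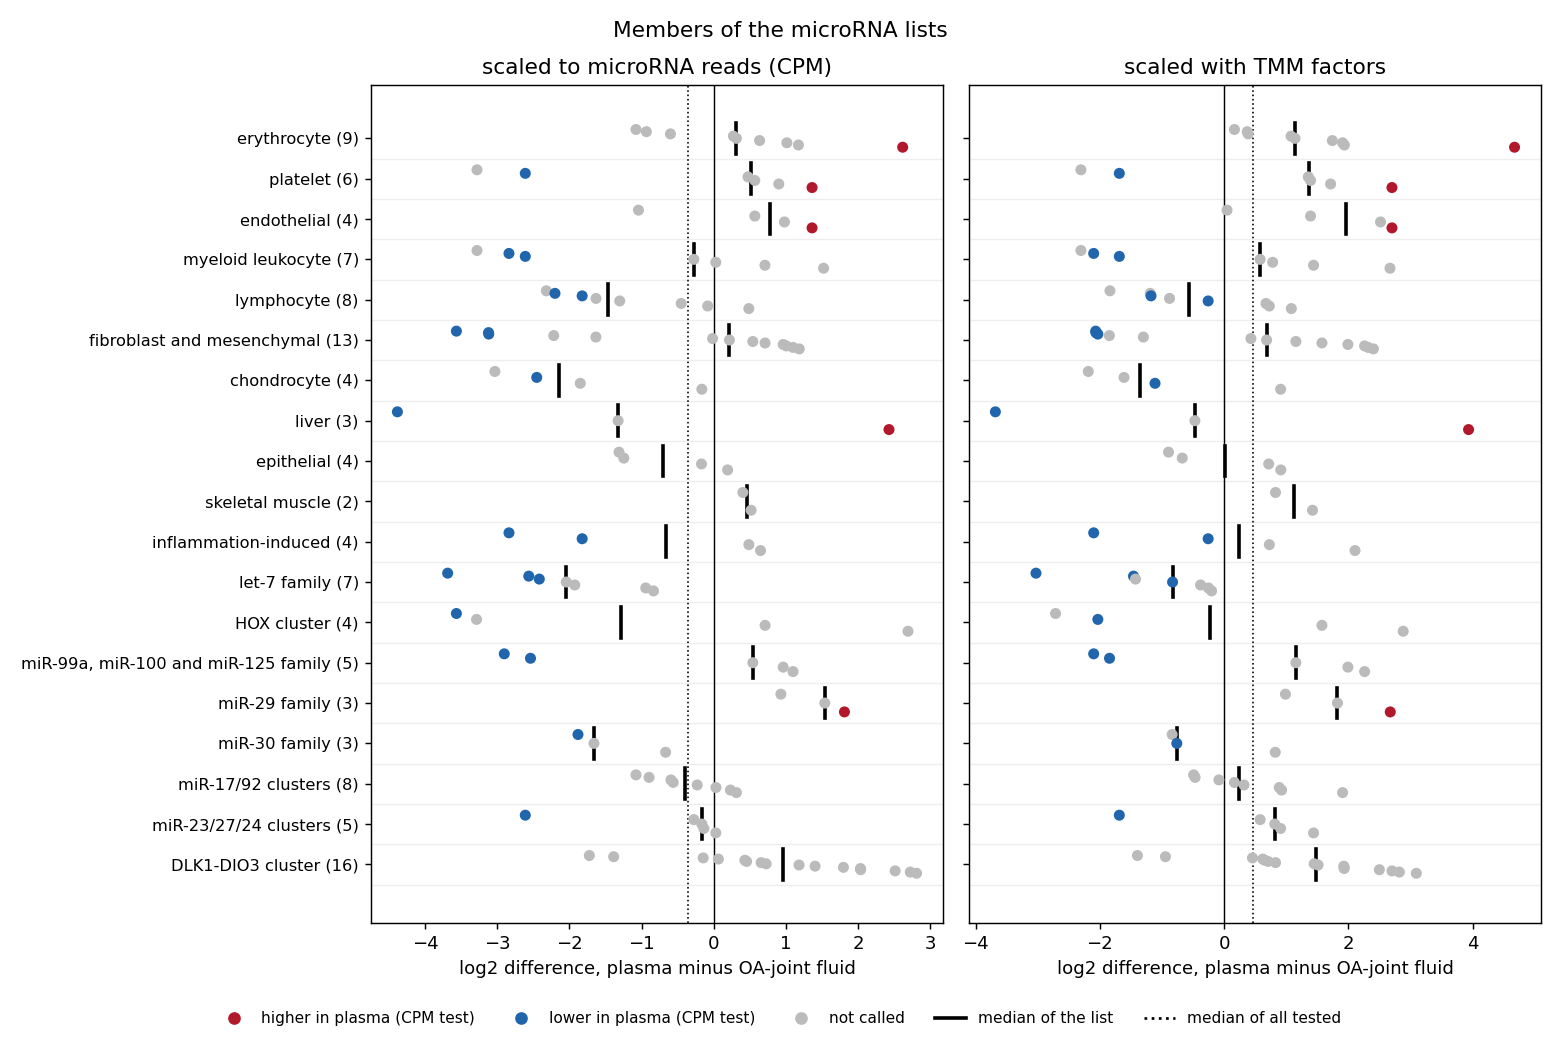
Log2 differences, plasma minus OA-joint fluid (x axis), of the tested members of 19 lists (rows, number tested in brackets), with CPM (left) and TMM scaling (right). The bar is the median of the list and the dotted line that of all tested (-0.35 with CPM, 0.46 with TMM); colours mark members that passed with CPM in both panels. let-7 and chondrocyte medians stay below 0 and miR-29 and DLK1-DIO3 medians above 0 in both. The DLK1-DIO3 median is fixed in part by the filter on low levels, which some members passed through plasma alone.

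Other abundant microRNAs did not differ with CPM. miR-181a stood at 16147 ± 3115 CPM in plasma and 17092 ± 3242 CPM in OA-joint fluid (-0.085, adjusted p = 0.879), and it turned to 1.08 with TMM without passing (adjusted p = 0.0691). miR-103, whose counts equal those of miR-107a in 36 of 52 libraries, stood at 15758 ± 3327 CPM in plasma and 11720 ± 2908 CPM in OA-joint fluid (0.43, adjusted p = 0.44), and it passed as higher with TMM (1.35, adjusted p = 0.0273). miR-22 stood at 15039 ± 6458 CPM in plasma and 24469 ± 2714 CPM in OA-joint fluid (-0.80, adjusted p = 0.103).

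Libraries of a horse lay further apart in plasma than in OA-joint fluid. Over 27 microRNAs with at least 5000 CPM in both fluids, the SD of log2(CPM + 50) between the libraries of a horse averaged 2.53 ± 0.15 in plasma and 1.32 ± 0.13 in OA-joint fluid, higher in plasma in 4 of 4 horses (exact permutation p = 0.125, the smallest possible). This measure was chosen after its values were seen, and plasma libraries also held fewer reads; the part of depth was not tested.

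The difference between the fluids was then followed over the time points. At each of the 7 time points the mean pair difference was below 0 for miR-10b (between -6.32 and -2.44), miR-199a-3p (-6.71 to -2.07), let-7c (-4.55 to -1.54) and miR-26a (-3.12 to -0.80). miR-486-5p was above 0 at 6 of 7 time points, up to 4.29, and at -0.76 at time point 63, where the library of horse 8 rich in microRNA falls. miR-126-5p was above 0 at 6 of 7 time points (-1.77 to 3.77), and so was miR-192 (-0.14 to 5.50). miR-29a was above 0 at 5 of 7 time points (-1.74 to 4.38). Pair values scattered widely around these means.

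**Figure D5:**
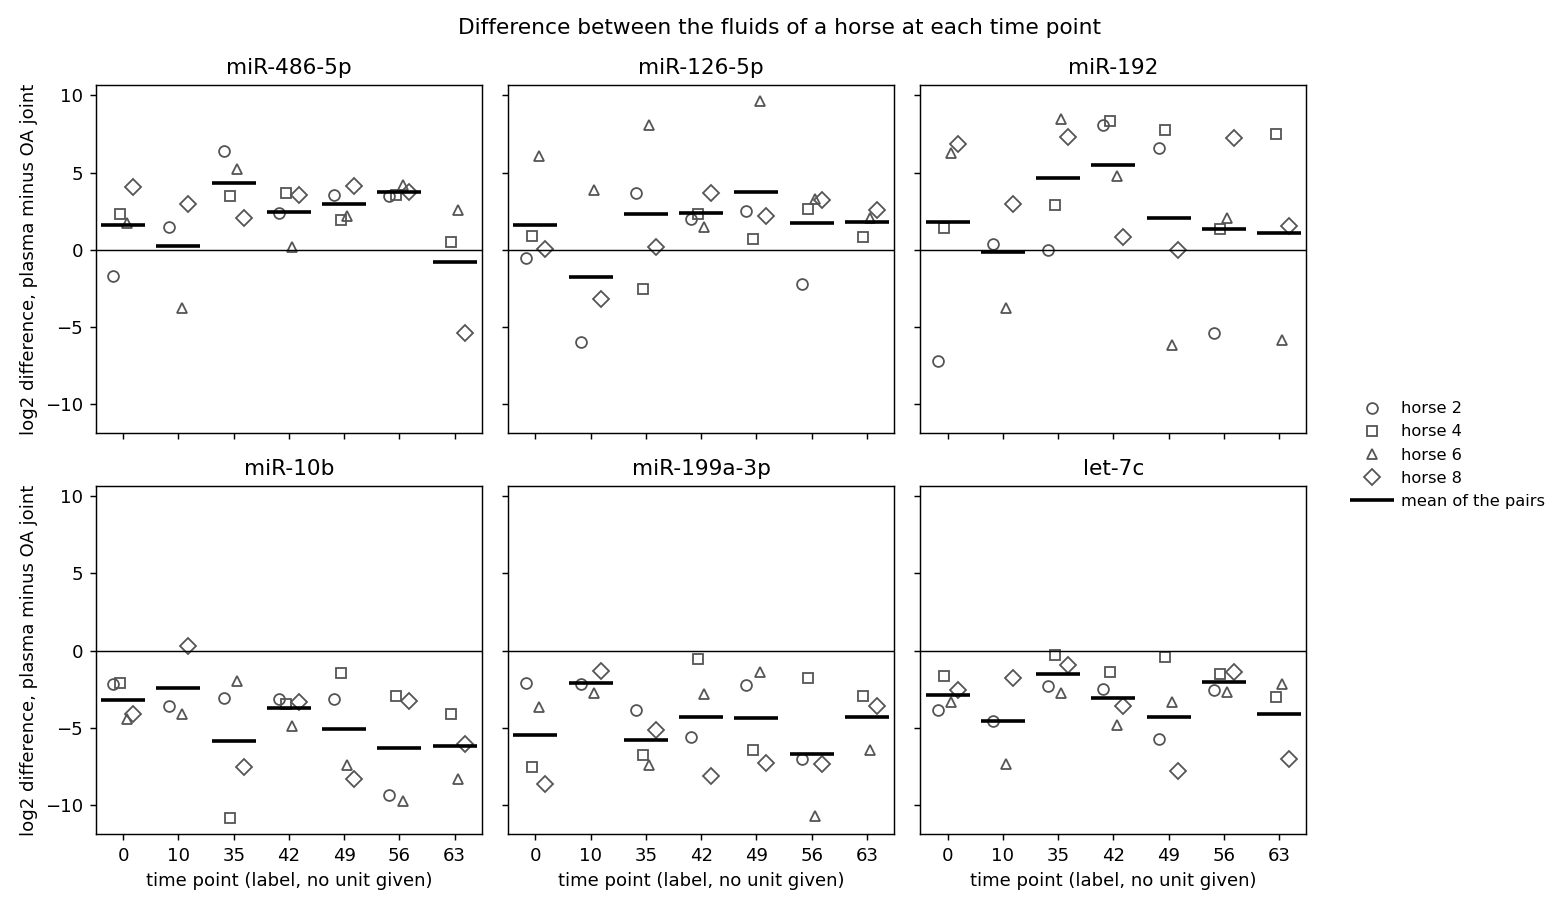
Log2 difference, plasma minus OA-joint fluid (y axis), of each horse at each time point (x axis, labels without a unit) for 6 microRNAs that differed; bars are means over the 3 or 4 pairs. The means of miR-10b, miR-199a-3p and let-7c stay below 0 at all 7 time points, with 1 miR-10b pair above 0, while miR-486-5p, miR-126-5p and miR-192 have pairs on both sides.

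No change of the difference after time point 0 passed the test. Of 143 tested within horses 0 passed in limma (0%), with 4 at an unadjusted p under 0.05, and the interaction test of edgeR on the 52 libraries gave 0 of 58, with 1 at an unadjusted p under 0.05. The smallest p belonged to miR-122, whose plasma minus OA-joint difference changed after time point 0 by -5.62 (SE 1.31, adjusted p = 0.468, lower in 4 of 4 horses). It stood at 6.14 CPM in plasma and 3218 CPM in OA-joint fluid after time point 0, and at 1052 CPM in plasma and 1358 CPM in OA-joint fluid at time point 0. miR-223 (-4.71) and let-7g (-4.82), next by p, each had an adjusted p = 0.92. With 1 library a horse at time point 0, this comparison has little precision.

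Plasma can be set against the CTRL joint in place of the OA joint. The plasma samples are then shared, so whether the 2 comparisons differ is the comparison of the joints. Here the filter on low levels was applied to the joint libraries, so the 143 microRNAs tested are not all the same as above. Of these 143, 0 differed between OA-joint and CTRL-joint fluid in limma (0%), with 11 at an unadjusted p under 0.05. For the 21 microRNAs above, the log2 difference, OA minus CTRL joint, ran from -0.60 (miR-29a) to 1.42 (miR-192), with 0.515 as their smallest adjusted p. miR-10b stood at 83357 ± 8494 CPM in the OA joint and 83204 ± 13491 CPM in the CTRL joint, beside 7344 ± 2452 CPM in plasma. let-7c stood at 113388 ± 7056 CPM in the OA joint and 93526 ± 2612 CPM in the CTRL joint (0.28, adjusted p = 0.515), beside 24262 ± 15246 CPM in plasma. miR-486-5p stood at 60991 ± 13313 CPM in the OA joint and 64172 ± 15835 CPM in the CTRL joint (-0.068, adjusted p = 0.846), beside 370538 ± 60877 CPM in plasma.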

How the data were processed

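Small RNA libraries of extracellular vesicles were prepared, per the labels' protocols, with TriLink's CleanTag kit. The submitters' processing notes name cutadapt, Bowtie, edgeR and the build EquCab3.0. Their versions and settings, and the treatment of reads shared by near-identical microRNAs, are not stated in any source used here. Read counts were deposited by the authors as whole numbers, under 690 horse microRNA names beside synthetic spike-ins. The RPM column deposited by the authors served only to recover the library total. Spike-ins stayed out of the microRNA totals behind CPM, but were not subtracted from the library total. Reads of the spike-in uniSp2 alone came to between 0.877% and 71.6% of that total. RPM and percent values of the library total may therefore vary with it. The depth of each library, given with the results, sets what 1 read is worth.

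Counts were turned into CPM of the microRNA reads and averaged per horse and fluid, so that each library weighs the same. Features with a mean of the 8 values of at least 100 CPM (143 of 261 with a read) were tested with limma 3.58.1 (trend, 26.7 prior degrees of freedom beside 3 residual ones) on log2(CPM + 50), horse as a block, in R 4.3.3. The count tests of edgeR 4.0.16 and DESeq2 1.42.0 are alternatives, since in them deep libraries weigh more. The fits were tested on simulated data. Single values were compared by exact two-sided sign-flip permutation.

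Pairs come from the same animal, per the labels; deviations of a horse's 2 fluid means correlated at -0.153 to 0.0387. Libraries of a horse are not replicates: the horse is (n = 4).

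Named were all features called, up to 14 in each direction, the 10 most frequent of each fluid, list members that passed or led their list in level, and the 3 smallest p after time point 0; miR-125a-5p, miR-186 and miR-146a, beyond the 14, were named after their values were seen, as were further list members and features called only with TMM. A list entry matched a name equal to it or with -3p or -5p added. The members and the 19 lists (red blood cell, platelet, endothelial, myeloid, lymphocyte, fibroblast and mesenchymal, chondrocyte, liver, epithelial, skeletal muscle, inflammation-induced, let-7, HOX, miR-99a/miR-100/miR-125, miR-29, miR-30, miR-17/92, miR-23/27/24, DLK1-DIO3) were chosen with earlier results of these data known, so lists are described by counts and medians; lists overlap.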

Additional observations from a re-analysis of the deposited data

Results flagged for a closer look

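Among 58 groups of 4 horse means checked for a horse far from the other 3, 5 were flagged (8.62%); chance flags about 1 in 20 groups. In plasma, miR-29a of horse 6 stood at 12797 CPM, where the other 3 horses ran from 7291 to 8202 CPM. miR-28-3p of horse 8 stood at 2896 CPM in plasma, against 1107 to 1267 CPM in the other 3. miR-122 of horse 4 stood at 693 CPM in plasma, against 0 to 17.2 CPM in the other 3, and in OA-joint fluid miR-122 of horse 8 stood at 7141 CPM, against 1095 to 2077 CPM. In OA-joint fluid miR-92a of horse 2 was low at 19692 CPM, against 29011 to 30910 CPM in the other 3.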

How the results depend on the processing

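Of the 21 microRNAs called, miR-10b passed in every alternative with a test. Dropping the pairing by horse gave 22 calls (no replicate block), 19 of them among the 21. miR-221 was among those newly passing, and 2 of miR-125a-5p, miR-186 and miR-146a no longer passed. Leaving out each horse in turn gave 15 to 28 calls, 2 to 9 higher (9 without horse 4, 2 without horse 8) and 13 to 19 lower. Calls were 10 with no filter on low values (1 higher, 9 lower), 43 with the mean of log2 CPM per horse (39 lower), 7 with the median CPM per horse (1 higher, 6 lower), 51 with DESeq2 on horse sums (27 higher) and 4 at time point 0 alone (0 higher, 4 lower). Higher calls were 18 with TMM, 9 without miR-486-5p in the total and 19 with RPM of the library total, and lower calls 5 with TMM and 3 with the library total. They were 17 higher with edgeR on horse sums, 2 without the pairs of the plasma libraries rich in microRNA and 7 without pairs with a library under 8000 reads.

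Directions turned as follows, in log2. For miR-125a-5p, called lower, 0.61 (library total). For miR-181a 1.08 (TMM), 0.40 (without miR-486-5p), 1.92 (library total), 0.40, 0.99 and 0.95 (edgeR on libraries, edgeR and DESeq2 on horse sums), 0.050 (without shallow pairs) and 0.038 (without time point 0). For miR-451 -0.22 (library total), -0.74 (mean log2), -0.23 (median), -1.15 and -1.16 (edgeR and DESeq2 sums). For miR-22 1.45 (library total), 0.54 and 0.50 (edgeR and DESeq2 sums). For miR-92a -0.24 (mean log2), -0.080 and -0.10 (edgeR and DESeq2 sums) and -0.012 (time point 0). For miR-103 -0.028 (mean log2). For miR-23a -0.85 (mean log2), -0.26 (median), -0.029 and -0.15 (without horses 6 and 8) and -0.23 (without time point 0). With medians miR-29a stood at -0.65 and miR-21 at -0.012. At time point 0 alone miR-30d stood at 0.44, miR-146b-5p at 0.56 and miR-122 at 0.21. In lane 1 pairs 18 of the 21 called kept their direction, and among those that turned miR-122 stood at 1.14 and miR-192 at -0.98. The microRNA percent of the total turned to -0.101 with medians and -0.117 without the rich libraries. With no replicate block the differences of -11.9 microRNAs at equal depth and 13.2 percentage points in the 10 most frequent had an exact permutation p = 0.0286. This is the smallest p that test allows, and it ignores the pairing by horse. The causes were not tested.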
